A study of Mus musculus with 15 samples.

Results

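Smarcd1, Smarcd2 and Smarcd3 encode the d subunits of the mouse SWI/SNF (BAF) complexes, and their mRNA was followed here over 15 libraries. All came from 6DT1 cells, a line derived from a mammary tumor of an FVB/N transgenic mouse. The members were selected by gene name: 3 genes of the 13501 in the table of the overexpression experiment and of the 13669 in the table of the knockdown experiment, together with their 7 transcripts of 30220 in the table of transcripts. No measured value was used in that selection, and all 3 genes were present in both gene tables.

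The 5 lines had 3 libraries each and were all made from 6DT1 by viral transduction. OE carried a mouse Smarcd1 coding sequence with a Myc tag at the C-terminal end, and EV carried the empty vector. Both were selected with blasticidin. KD4 and KD6 expressed different hairpins directed at Smarcd1, and shScr expressed a scrambled one. These 3 lines were selected with puromycin. All lines were grown as a monolayer on plastic without further treatment and RNA was taken 24 h after seeding at 70% confluence, each replicate from another passage on a subsequent day. Each line is a single transduced and drug-selected population, so the replicates of a line share its transduction. Replicates then measure the spread between passages, not between independent transductions.

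A SWI/SNF complex is a chromatin remodeler that moves or ejects nucleosomes with the energy of ATP. Each complex holds a single d subunit in its base, where it contacts the scaffold subunits Smarcc1 and Smarcc2, so the 3 paralogs are alternatives for the same place. In human cells the canonical BAF and PBAF complexes accept any of them, and the smaller GBAF complex with BRD9 is built with SMARCD1. Smarcd1 is known as the link between the complex and nuclear receptors, Smarcd2 for its part in granulocyte formation, and Smarcd3 for its part in heart and skeletal muscle. The question put to the data was whether Smarcd2 or Smarcd3 moved when Smarcd1 was raised or lowered.

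Smarcd1 lies on the plus strand of chr15:99532718-99544426, Smarcd2 on the minus strand of chr11:106124493-106134286 and Smarcd3 on the minus strand of chr5:24096636-24107830 (GENCODE vM1 on NCBIM37, a build that is not known to be that of the deposited tables). In that annotation Smarcd1 has a single transcript, Smarcd1-201 with 13 exons and 3153 bases, and it is the only Smarcd1 transcript in the table. Of the 9 annotated Smarcd2 transcripts 4 were listed, the protein-coding Smarcd2-001 and Smarcd2-002 and the retained-intron transcripts Smarcd2-005 and Smarcd2-006. Of the 8 annotated Smarcd3 transcripts 2 were listed, the protein-coding Smarcd3-001 and the retained-intron transcript Smarcd3-002.

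The coding sequences are shown first because a level of one paralog is only its own if its reads can be told from those of the others. Over the aligned coding bases Smarcd1-201 and Smarcd2-001 were identical at 70.9%, Smarcd1-201 and Smarcd3-001 at 73.9%, and Smarcd2-001 and Smarcd3-001 at 72.6%. The proteins they encode, of 515, 531 and 483 residues, were identical at 71.1% to 75.6% of the aligned residues. The longest run of bases shared by 2 paralogs was 21, between Smarcd1-201 and Smarcd3-001, and no stretch of 50 bases was shared by any pair of paralogs. The 60 coding bases with the most positions in common, 49 of 60, are given below with those positions in capitals.
Smarcd1-201: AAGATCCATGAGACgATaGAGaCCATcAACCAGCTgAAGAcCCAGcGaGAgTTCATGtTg
Smarcd2-001: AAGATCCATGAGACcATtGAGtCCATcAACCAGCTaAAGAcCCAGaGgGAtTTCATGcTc
Smarcd3-001: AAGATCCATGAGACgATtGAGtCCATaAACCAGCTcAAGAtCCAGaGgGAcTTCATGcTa
The 3 stretches begin at coding bases 1267, 1315 and 1171 of their transcripts. The lower-case letters mark the positions at which at least 1 of the paralogs differs.

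Both coding transcripts of Smarcd2 end in the same 1383 coding bases and differ before them. Smarcd2-001 has 213 coding bases of its own and Smarcd2-002 has 72, so the difference between them lies at the N-terminal end of the protein. The join is shown because only reads on the left of it, or across it, separate these transcripts within the coding sequence. The 24 bases in capitals are the first of the shared part.
Smarcd2-001: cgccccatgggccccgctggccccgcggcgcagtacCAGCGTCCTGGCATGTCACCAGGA
Smarcd2-002: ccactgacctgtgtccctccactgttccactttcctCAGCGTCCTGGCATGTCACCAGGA

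Levels are the deposited values, treated as CPM, that is, read counts scaled to the size of each library. The number of reads behind them is unknown. Differences were tested with limma on log2(CPM + 1), with the Benjamini-Hochberg adjustment taken over every gene or transcript of the table, and a difference passed at an adjusted p under 0.05. The first principal component of the OE and EV table (40.2% of variance) set EV replicate 1 apart, at 23.7 against -11.3 to -1.07 in the other 5 libraries. The epithelial markers Krt8, Krt18 and Krt19 summed to 660 to 961 CPM over the 15 libraries, while Epcam and Cdh1, which define epithelial cells, were not listed in either table. Neither were Ptprc, Pecam1, Col1a1 and Adipoq, which mark immune, endothelial, fibroblast and fat cells. Other genes of these lists were present: Cd68, 1 of 6 immune markers, at 46.8 to 68.7 CPM in OE and 62.0 to 63.5 CPM in EV, and at 27.4 to 35.1 CPM in KD4 and 30.3 to 49.7 CPM in KD6 against 32.3 to 38.7 CPM in shScr. Kdr and Vwf, 2 of 5 endothelial markers, summed to 6.55 to 37.3 CPM in OE and 9.57 to 35.2 CPM in EV and were not listed in the table of the hairpin lines. Pdgfra, 1 of 7 fibroblast markers, had 2.54 to 7.75 CPM over all lines, and none of the 4 fat cell markers was listed. Their part in the results was not tested. The tables hold only rows with a geometric mean of at least 1.00 CPM.

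Smarcd1 was highest in OE and lowest in KD4. In OE it had 70.4, 65.0 and 61.7 CPM, against 31.9, 27.1 and 29.9 CPM in EV, so the lowest OE library was above the highest EV library. The means were 65.7 ± 4.40 CPM in OE and 29.6 ± 2.37 CPM in EV (SD, n = 3 each), a ratio of 2.22. The log2 change was 1.12 (SE 0.07, 95% interval 0.95 to 1.29, limma adjusted p = 0.0035). It was the only gene of 13501 that passed in this comparison (0.00741%), and it had the smallest p of all of them. The call was lost without OE replicate 2 (log2 change 1.13, adjusted p = 0.053) and without EV replicate 3 (1.13, adjusted p = 0.052), and held without EV replicate 1 (1.17, adjusted p = 0.0021).

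Both hairpin lines were compared with shScr, and they differed in Smarcd1. KD4 had 9.07, 9.05 and 9.27 CPM, against 14.5, 16.5 and 15.04 CPM in shScr, with no overlap. The mean was 9.13 ± 0.121 CPM in KD4 and 15.3 ± 1.01 CPM in shScr (SD, n = 3 each), a ratio of 0.595. Smarcd1 fell by 0.69 on the log2 scale (SE 0.08, 95% interval -0.88 to -0.50, adjusted p = 0.00087), among 1310 of 13669 genes (9.58%) that passed in KD4. In KD4 the epithelial marker Krt19 also fell (log2 change -0.76, adjusted p = 0.0011) and Pdgfra, on the fibroblast list but the only one of its 7 genes listed in the tables, rose (log2 change 1.05, adjusted p = 0.00046), while the summed epithelial markers spanned 763 to 961 CPM in KD4 and 698 to 770 CPM in shScr (3 of 10 markers listed, with Krt18 at 0.31, adjusted p = 0.087, and Krt8 at 0.15, adjusted p = 0.49). Pdgfra had 7.12 to 7.75 CPM in KD4 and 2.54 to 3.55 CPM in shScr. Their part in the result was not tested. In bulk RNA a lower level can mean less RNA in each cell or fewer cells that express the gene, and the values cannot tell these apart.

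In KD6 Smarcd1 had 13.2, 14.8 and 15.1 CPM, a range that overlapped shScr. The mean was 14.4 ± 1.03 CPM in KD6 against 15.3 ± 1.01 CPM in shScr (SD, n = 3 each), and the log2 change of -0.09 (SE 0.08) did not pass (adjusted p = 0.70). Its 95% interval ran from -0.28 to 0.10, which does not hold the estimate of KD4. In the same comparison 398 of 13669 genes (2.91%) passed. The level of Smarcd1 in the line labelled KD6 was thus 0.936 times that of shScr, a difference within the spread of the replicates.

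The difference between the hairpin lines was tested directly. Smarcd1 was 0.60 higher on the log2 scale in KD6 than in KD4 (SE 0.08, 95% interval 0.41 to 0.79, adjusted p = 0.0029), with every KD6 library above every KD4 library. In this comparison 671 genes (4.91%) passed, among them Krt19 (log2 difference 0.51, adjusted p = 0.014) and Pdgfra (-0.57, adjusted p = 0.017), whose part was not tested. With both hairpins as 1 group the 6 KD libraries spanned 9.05 to 15.1 CPM, against 14.5 to 16.5 CPM in shScr, and the log2 change of -0.39 (SE 0.17, adjusted p = 0.27) did not pass, where 364 genes (2.66%) did, Pdgfra among them (0.76, adjusted p = 0.042). Taken instead as the mean of both hairpins in the fit of 3 groups, the same change of -0.39 passed (adjusted p = 0.013), and that fit called 847 genes.

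**Figure D1:**
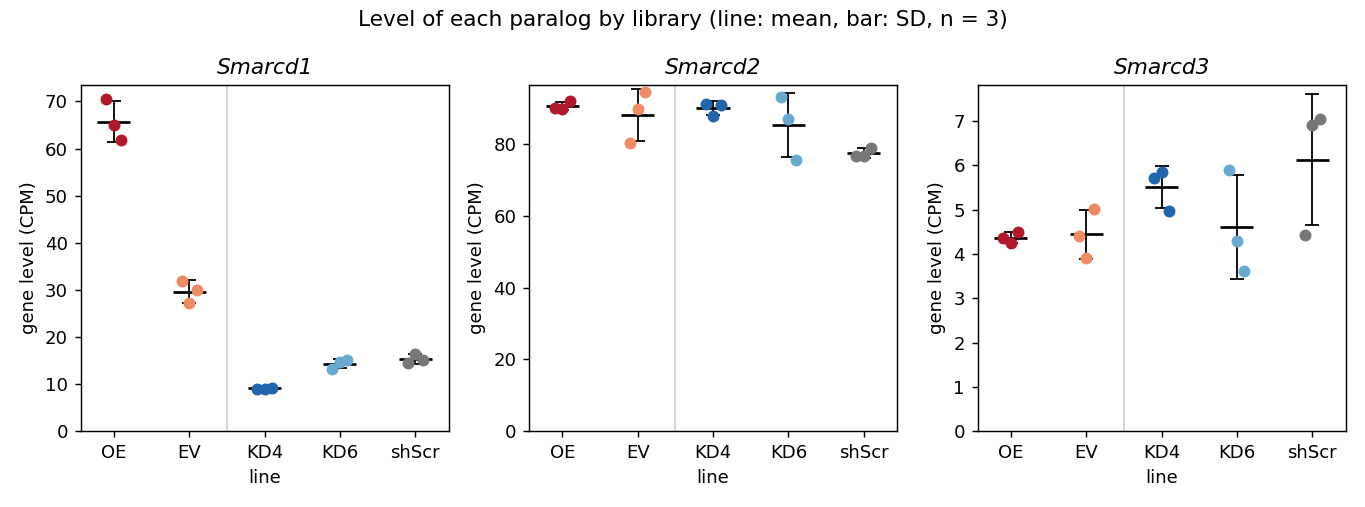
Level of Smarcd1, Smarcd2 and Smarcd3 as genes (CPM, on a linear axis that starts at 0) by line. Each point is a library, the horizontal line the mean and the bar the SD (n = 3). Smarcd1 separates OE (61.7 to 70.4 CPM) from EV (27.1 to 31.9 CPM) and KD4 (9.05 to 9.27 CPM) from shScr (14.5 to 16.5 CPM). Smarcd2 lies between 75.6 and 94.5 CPM and Smarcd3 between 3.62 and 7.05 CPM in all lines. Smarcd2 also separates KD4 (88.0 to 91.3 CPM) from shScr (76.7 to 79.0 CPM), a difference that did not pass.

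Per kilobase of listed transcript, a measure that leaves out part of Smarcd1 in OE, Smarcd2 was the most abundant paralog in every line. It did not pass in any comparison. In OE it had 90.2, 89.8 and 92.1 CPM, against 80.3, 89.9 and 94.5 CPM in EV, so the OE libraries lay within the range of EV. The log2 change was 0.04 (SE 0.06, 95% interval -0.10 to 0.19, adjusted p = 0.80), and it turned to -0.02 without EV replicate 1. The interval holds changes of up to 0.19 upward, against 1.12 for Smarcd1 in the same libraries.

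In KD4 Smarcd2 had 91.3, 88.0 and 91.0 CPM, against 76.7, 76.7 and 79.0 CPM in shScr. All KD4 libraries were above all shScr libraries, and the mean of 90.1 ± 1.86 CPM in KD4 was 16.3% above the 77.5 ± 1.34 CPM of shScr (SD, n = 3 each). The log2 change of 0.21 (SE 0.08, 95% interval 0.05 to 0.38) did not pass the threshold (adjusted p = 0.11, and 0.10 to 0.28 over the alternatives), and by its p the gene ranked 2173 of 13669. In KD6 it had 93.3, 86.9 and 75.6 CPM, a spread that covered shScr, with a log2 change of 0.13 (SE 0.08, 95% interval -0.04 to 0.30, adjusted p = 0.47). Between KD6 and KD4 the log2 difference was -0.08 (95% interval -0.25 to 0.09, adjusted p = 0.67). With both hairpins as 1 group it was 0.17 (95% interval 0.02 to 0.33, adjusted p = 0.23).

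The level of Smarcd2 in shScr was the lowest mean of the 5 lines. Set side by side, the means were 90.7 ± 1.21 CPM in OE, 88.2 ± 7.28 CPM in EV, 90.1 ± 1.86 CPM in KD4, 85.3 ± 8.96 CPM in KD6 and 77.5 ± 1.34 CPM in shScr (SD, n = 3 each; OE and EV come from another table than the hairpin lines, both in CPM). The KD4 libraries lay within the range of EV, a line with more Smarcd1. Over the 10 pairs of lines, fitted together on the summed transcripts, the smallest adjusted p for Smarcd2 was 0.28, for KD4 against shScr.

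Smarcd3, the least abundant paralog per kilobase of listed transcript, did not pass in any comparison either. In OE it had 4.36, 4.24 and 4.50 CPM, against 4.41, 3.91 and 5.02 CPM in EV, and the log2 change was -0.02 (SE 0.10, 95% interval -0.25 to 0.22, adjusted p = 0.96). In KD4 it had 5.72, 5.85 and 4.98 CPM, against 4.42, 6.90 and 7.05 CPM in shScr, with a log2 change of -0.11 (SE 0.18, 95% interval -0.50 to 0.29, adjusted p = 0.76). In KD6 it had 5.90, 4.29 and 3.62 CPM, with a log2 change from shScr of -0.34 (SE 0.18, 95% interval -0.74 to 0.05, adjusted p = 0.40). The ranges overlapped in each of these comparisons, and both hairpin estimates lay below 0 with intervals that reach above it. Between KD6 and KD4 the log2 difference was -0.24 (adjusted p = 0.58), and with both hairpins as 1 group it was -0.23 (adjusted p = 0.52). The intervals of Smarcd3 were wider than those of Smarcd2 in every comparison.

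**Figure D2:**
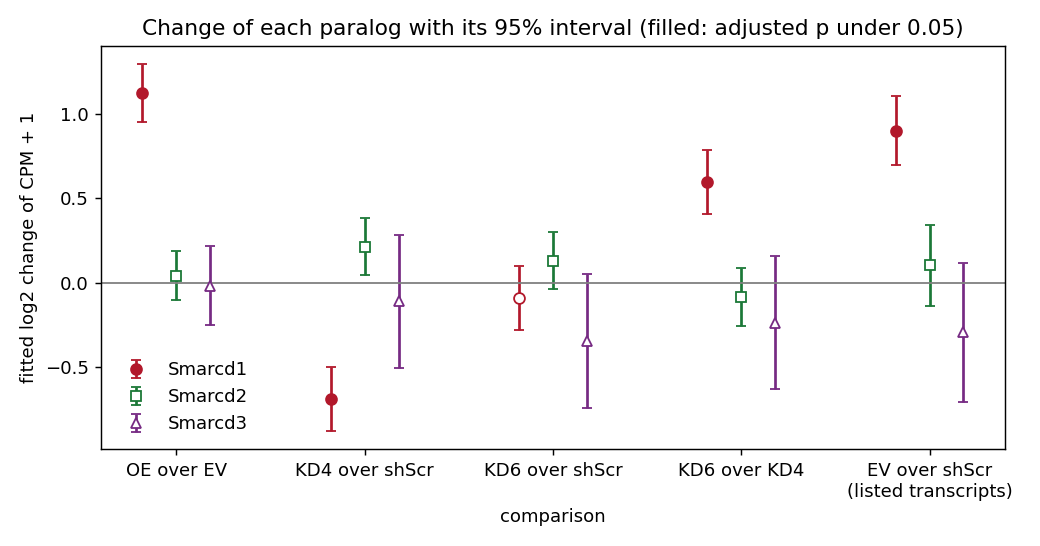
Fitted log2 change of CPM + 1 with its 95% interval for the 3 paralogs in 5 comparisons, filled where the adjusted p is under 0.05. Only Smarcd1 has filled points (OE over EV 1.12, KD4 over shScr -0.69, KD6 over KD4 0.60, EV over shScr, on summed transcripts, 0.90), and the points of Smarcd2 and Smarcd3 lie between -0.34 and 0.21.

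The gene table and the transcript table gave different sizes for the overexpression. Smarcd1-201, the listed transcript, had 38.3, 37.4 and 36.4 CPM in OE, against 32.4, 27.0 and 28.8 CPM in EV. The libraries did not overlap, yet the mean of 37.3 ± 0.962 CPM in OE was 1.27 times the 29.4 ± 2.74 CPM of EV (SD, n = 3 each), where the gene level was 2.22 times that of EV. The log2 change of 0.34 (SE 0.10, 95% interval 0.13 to 0.55) did not pass (adjusted p = 0.71). None of 30220 transcripts passed in this comparison (0%), with 1997 at an unadjusted p under 0.05.

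The gap between the tables was widest in OE. The gene level divided by the level of the listed transcript was 1.84, 1.74 and 1.70 in OE, against 0.984, 1.01 and 1.04 in EV. It was 1.06 to 1.25 in KD4 and 1.04 to 1.15 in KD6, against 0.966 to 1.03 in shScr, so it was above shScr in both hairpin lines as well, by far less. As a difference, 28.4 ± 3.46 CPM of the gene level in OE was not carried by the listed transcript, against 0.277 ± 0.844 CPM in EV (SD, n = 3 each). The log2 ratio of gene to listed transcripts was 0.80 higher in OE than in EV. Of the 12998 genes found in the gene table and the transcript table, 14 had a larger rise of this ratio, and of the 9108 with a mean of at least 10 CPM none had, while the median over all genes was near 0. This rank is a description, found after the values were seen, with no test. For Smarcd2 the same ratio averaged 1.17 in OE and 1.17 in EV, and for Smarcd3 1.28 in OE and 1.21 in EV. A transcript present in OE but near 0 in the other lines would not be listed, since listed rows have a geometric mean of at least 1.00 CPM, and what makes up the 28.4 CPM was not tested.

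In the hairpin lines the tables lay closer together. Smarcd1-201 had 8.32, 7.21 and 8.76 CPM in KD4, against 14.1, 17.03 and 14.7 CPM in shScr, and fell by 0.84 on the log2 scale (SE 0.10, adjusted p = 0.00060), among 1093 transcripts (3.62%) that passed. In KD6 it had 12.2, 14.3 and 13.1 CPM, with a log2 change from shScr of -0.20 (SE 0.10, 95% interval -0.41 to 0.02, adjusted p = 0.45), where 296 transcripts (0.979%) passed. The estimate for KD6 was thus larger than in the gene table and still did not pass.

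**Figure D3:**
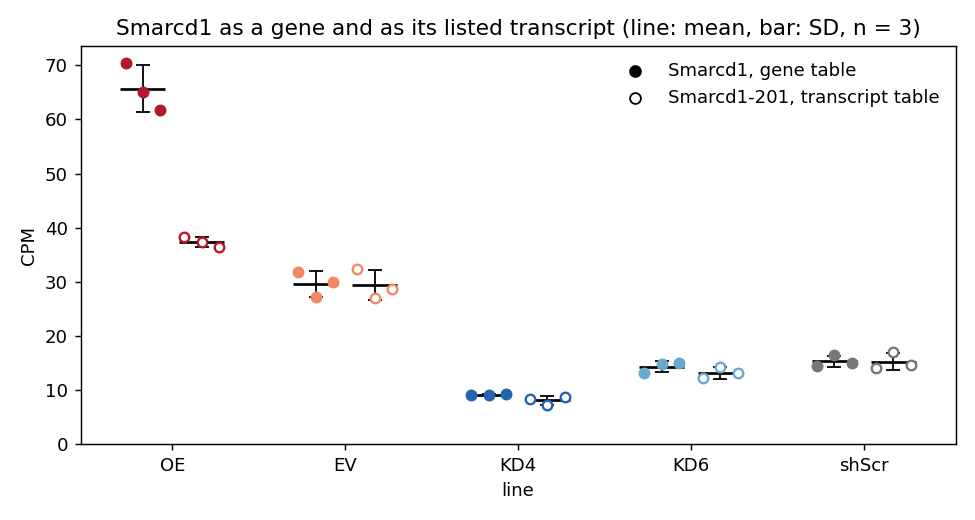
Smarcd1 in CPM by library from the gene table (filled points) and as its listed transcript Smarcd1-201 from the transcript table (open points), with mean and SD (n = 3). The 2 measures lie apart in OE (65.7 against 37.3 CPM on average) and close together in EV, KD4, KD6 and shScr.

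Both control lines also differed in Smarcd1. On the summed transcripts, which place all 15 libraries in 1 table, EV was above shScr by 0.90 on the log2 scale (SE 0.10, 95% interval 0.70 to 1.10, adjusted p = 7.5e-05), with 29.4 ± 2.74 CPM in EV and 15.3 ± 1.55 CPM in shScr (SD, n = 3 each). It was 1 of 2078 genes of 13142 (15.8%) that differed between the control lines. Vector, selection drug and transduction all differ between EV and shScr and cannot be told apart. For Smarcd2 the log2 difference of EV from shScr was 0.10 (95% interval -0.14 to 0.34, adjusted p = 0.54) and for Smarcd3 it was -0.29 (95% interval -0.70 to 0.12, adjusted p = 0.30). A line with 1.92 times the Smarcd1 of another control showed no call in either paralog, which does not show equal levels. The gene level of Smarcd2 averaged 88.2 CPM in EV and 77.5 CPM in shScr, without overlap but from separate tables. Smarcd2-002 averaged 23.6 CPM in EV and 18.5 CPM in shScr, also without overlap. Smarcd2-006 lay the other way without overlap, at 1.88 CPM in EV and 2.51 CPM in shScr. These differences were not tested.

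Ordered by the listed transcript, Smarcd1 ran from OE (37.3 CPM) through EV (29.4 CPM), shScr (15.3 CPM) and KD6 (13.2 CPM) to KD4 (8.10 CPM). EV against shScr and KD6 against KD4 passed as neighbours in this order, while OE against EV and KD6 against shScr did not. On the same scale the effect of OE and the effect of KD4, each relative to its own control, differed for Smarcd1 by 1.18 (SE 0.13, adjusted p = 0.00043), where 632 genes (4.81%) passed. The OE and KD6 effects differed by 0.54 (SE 0.13) and did not pass (adjusted p = 0.077), where 159 genes (1.21%) did. For Smarcd2 the effects of OE and KD4 differed by -0.16 (95% interval -0.50 to 0.18, adjusted p = 0.59), and for Smarcd3 by -0.03 (95% interval -0.61 to 0.55, adjusted p = 0.96). Against KD6 the differences were -0.01 for Smarcd2 (95% interval -0.35 to 0.33, adjusted p = 0.97) and 0.33 for Smarcd3 (95% interval -0.25 to 0.91, adjusted p = 0.59). Neither paralog was therefore shown to respond differently to raised and lowered Smarcd1, within intervals that reach 0.61 on the log2 scale in size against KD4 and 0.91 against KD6.

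Levels of the paralogs can be set beside each other only per length. Per kilobase of listed transcript Smarcd2 had 31.8 ± 1.15 CPM in OE and 30.6 ± 2.13 CPM in EV, and 32.9 ± 2.97 CPM in KD4, 30.2 ± 5.26 CPM in KD6 and 28.8 ± 2.57 CPM in shScr (SD, n = 3 each). Smarcd1 had 11.8 ± 0.305 CPM per kb in OE, 9.32 ± 0.870 in EV, 2.57 ± 0.252 in KD4, 4.18 ± 0.334 in KD6 and 4.84 ± 0.493 in shScr. Smarcd3 averaged 1.62 CPM per kb over the 15 libraries, with a lowest value of 1.17 and a highest of 2.42. On this scale Smarcd2 was 2.69 ± 0.154 times Smarcd1 in OE and 3.32 ± 0.515 times in EV, and 12.8 ± 0.569 times in KD4, 7.27 ± 1.66 times in KD6 and 5.99 ± 0.758 times in shScr. Smarcd1 remained above Smarcd3 in all lines, also in KD4. The values per kilobase rest on listed transcripts and leave out the 28.4 CPM of Smarcd1 in OE described above, so the ratio in OE holds for the listed transcript only. The gene table had 65.7 CPM of Smarcd1 and 90.7 CPM of Smarcd2 in OE.

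The pool of d subunit mRNA was added up as a description, without a test, and per kilobase it took in the retained-intron transcripts. Per kilobase it was 45.0 ± 0.971 CPM in OE and 41.5 ± 1.37 CPM in EV, and 37.3 ± 3.21 CPM in KD4, 35.8 ± 5.44 CPM in KD6 and 35.6 ± 3.19 CPM in shScr (SD, n = 3 each). Smarcd1 made up 26.3% of it in OE and 22.5% in EV, and 6.89% in KD4, 11.9% in KD6 and 13.6% in shScr. Smarcd2 made up 70.7% in OE and 73.8% in EV, and 88.2% in KD4, 84.1% in KD6 and 80.9% in shScr. In KD4 the mean of Smarcd1 was 2.28 CPM per kb below shScr. The mean of Smarcd2 was 4.06 CPM per kb above shScr, a difference whose ranges overlapped on this scale. The mean of Smarcd2 per kilobase was lowest in shScr of all lines, and a link between these differences was not tested. By gene level, without regard to length, the 3 genes summed to 161 ± 3.69 CPM in OE and 122 ± 6.59 CPM in EV, and to 105 ± 1.69 CPM in KD4, 104 ± 9.16 CPM in KD6 and 98.9 ± 2.90 CPM in shScr. Of that sum Smarcd1 made up 40.9% in OE and 24.3% in EV, and 8.72% in KD4, 13.9% in KD6 and 15.5% in shScr, so its share in OE depends on which table is used.

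The transcripts of the paralogs were examined for a change hidden in the gene level. Smarcd2-001, with the longer N-terminal end, had 41.0, 54.3 and 50.3 CPM in OE, against 42.6, 51.4 and 48.8 CPM in EV (log2 change 0.02, 95% interval -0.37 to 0.41, adjusted p = 0.98). In KD4 it had 63.9, 42.4 and 58.1 CPM, against 40.9, 48.9 and 52.0 CPM in shScr (log2 change 0.20, adjusted p = 0.63). The replicates of KD4 thus lay in part within the range of the shScr libraries and in part above it. In KD6 it had 58.8, 46.4 and 36.1 CPM (log2 change -0.02, adjusted p = 0.98).

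Smarcd2-002, with the shorter end, was steadier among replicates. It had 27.5, 21.996 and 24.7 CPM in OE, against 21.5, 23.5 and 25.9 CPM in EV (log2 change 0.06, adjusted p = 0.89). KD4 had 19.1, 24.6 and 21.5 CPM and KD6 had 22.5, 23.0 and 21.1 CPM, against 20.3, 17.5 and 17.7 CPM in shScr. In KD6, as in OE and EV, all libraries were above those of shScr. The log2 change of KD6 from shScr was 0.25 (SE 0.11, 95% interval 0.02 to 0.49) and did not pass (adjusted p = 0.35). In KD4 the log2 change was 0.22 (95% interval -0.02 to 0.45, adjusted p = 0.32).

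Both retained-intron transcripts of Smarcd2 were minor. Smarcd2-006 had 2.94, 2.58 and 2.61 CPM in OE, against 1.39, 2.10 and 2.15 CPM in EV, without overlap, and a log2 change of 0.38 (SE 0.17, 95% interval 0.02 to 0.73) that did not pass (adjusted p = 0.71). Smarcd2-005 spanned 1.02 to 3.31 CPM over the 15 libraries and did not pass in any of the 3 comparisons (smallest adjusted p = 0.67). In Smarcd3 the coding transcript had 1.27 to 2.50 CPM and the retained-intron transcript 0.766 to 3.83 CPM over the 15 libraries, and neither passed. Smarcd3-001 had 1.58, 1.48 and 1.27 CPM in OE, against 1.82, 1.68 and 1.82 CPM in EV, without overlap (log2 change -0.18, 95% interval -0.46 to 0.09, adjusted p = 0.73). Among the Smarcd3 transcripts the largest estimate was -0.50 for Smarcd3-002 in KD6 (95% interval -1.05 to 0.05, adjusted p = 0.44).

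The split of each paralog over its transcripts was tested in the 7077 genes that had more than 1 listed transcript, with diffSplice of limma and the method of Simes. Smarcd2-001 took 62.3 ± 5.81% of the listed Smarcd2 in OE and 63.0 ± 1.74% in EV, and 67.3 ± 7.25% in KD4, 63.6 ± 4.34% in KD6 and 67.2 ± 3.59% in shScr (SD, n = 3 each). Smarcd3-001 took 42.5 ± 6.90% of the listed Smarcd3 in OE and 48.6 ± 6.33% in EV, and 44.6 ± 4.16% in KD4, 53.5 ± 13.2% in KD6 and 45.2 ± 5.53% in shScr. For Smarcd2 the adjusted p was 0.41 in OE against EV, 0.54 in KD4 against shScr and 0.63 in KD6 against shScr, and for Smarcd3 it was 0.78, 0.98 and 0.72. The test called 59 genes (0.834%) in OE, 156 (2.2%) in KD4 and 91 (1.29%) in KD6. On simulated data it called more unchanged genes than its threshold allows, and a form with a spread of its own for each transcript, added after the data were seen, called 0 in OE (449 at an unadjusted p under 0.05), 22 in KD4 and 7 in KD6 and did not call Smarcd2 or Smarcd3. Smarcd1, with a single listed transcript, could not be tested.

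**Figure D4:**
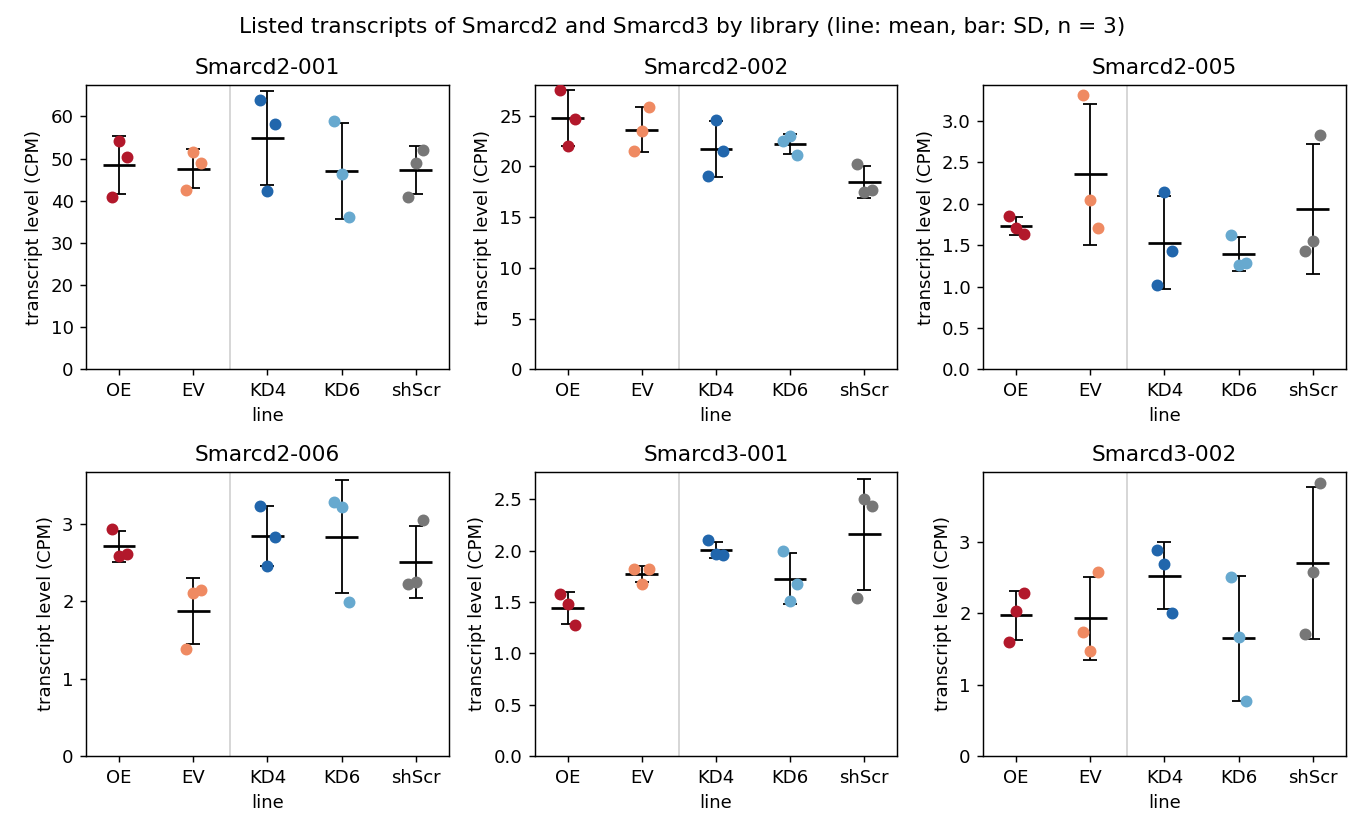
Level of the listed Smarcd2 and Smarcd3 transcripts (CPM, on linear axes that start at 0 and have a scale per panel) by line, with a point per library, the mean and the SD (n = 3). Smarcd2-001 and Smarcd2-002 carry most of Smarcd2 (36.1 to 63.9 and 17.5 to 27.5 CPM), and the retained-intron transcripts stay under 4 CPM.

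The partners of the d subunits in the complexes were taken as 28 other SWI/SNF subunits, of which 23 were measured. In OE none passed, beside 0.00741% of all genes, and 6 of 23 had an unadjusted p under 0.05, beside 1749 of 13501 genes, with a median log2 change of 0.05 beside 0.01 over all genes. In KD4 2 rose and none fell (8 of 23 unadjusted, beside 3373 of 13669 genes), with a median of 0.10 beside 0.00 over all genes. Brd9, the bromodomain subunit that defines GBAF, had 32.1, 34.8 and 36.4 CPM in KD4 against 28.5, 28.4 and 26.0 CPM in shScr (log2 change 0.31, SE 0.07, adjusted p = 0.029). Bcl7c, a small core subunit, had 26.2, 25.7 and 23.6 CPM in KD4 against 19.8, 19.2 and 21.3 CPM in shScr (log2 change 0.31, SE 0.08, adjusted p = 0.034). The 2 calls among 23 subunits stand beside 9.58% of all genes and are no result about the subunits as a group. Among core subunits the next smallest p in KD4 were those of Smarcb1 (log2 change 0.23, adjusted p = 0.095) and of the scaffold Smarcc1 (-0.42, adjusted p = 0.18), and the other measured GBAF subunit, Bicra, had a log2 change of 0.02 (adjusted p = 0.98).

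In KD6 none of the 23 subunits passed relative to shScr, beside 2.91% of all genes (3 of 23 unadjusted, beside 2087 of 13669 genes), with a median of 0.01 beside 0.00 over all genes, and with both hairpins as 1 group none passed either, beside 2.66% (4 of 23 unadjusted, beside 2364 of 13669 genes). Brd9, named here because it passed in KD4, had 33.5, 33.3 and 31.4 CPM in KD6, all above shScr, with a log2 change of 0.24 (adjusted p = 0.14). Between KD6 and KD4 1 of 23 subunits passed, a share near the 4.91% of all genes. This was Arid2, the ARID subunit of PBAF, which was lower in KD6 by a log2 difference of -0.37 (adjusted p = 0.035), with 84.9, 104 and 98.2 CPM in KD6 against 130, 128 and 113 CPM in KD4. The next PBAF subunits by p were Phf10 (-0.15, adjusted p = 0.31) and Brd7 (0.08, adjusted p = 0.66). The ATPases Smarca4 and Smarca2, which drive the complexes, did not pass in any comparison and summed to 239 to 257 CPM in OE against 237 to 240 CPM in EV, and to 196 to 236 CPM in KD4 and 231 to 248 CPM in KD6 against 209 to 238 CPM in shScr.

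Transcription factors and other proteins known to bind a d subunit, such as Nr3c1, the glucocorticoid receptor, were measured for 7 of 12 genes, and none passed in OE (1 unadjusted), KD4 (1) or KD6 (0), beside 0.00741%, 9.58% and 2.91% of all genes, and nothing is read from the absence of calls among 7 genes. Cebpe, Myod1, Tbx5 and Nkx2-5, partners of Smarcd2 and Smarcd3 in blood and muscle, were not listed in either table.

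Genes with the most similar pattern over the 15 libraries were sought among 10342 genes with a mean of at least 5 CPM, as a description. For Smarcd1 these were Trp53inp1 (Pearson r = 0.96), Txnip (0.96) and Cdc42bpg (0.96), on log2(summed transcript CPM + 1). Trp53inp1, a stress protein induced by p53, averaged 175 CPM in OE and 167 CPM in EV, and 50.9 CPM in KD4, 83.6 CPM in KD6 and 89.5 CPM in shScr. Txnip averaged 264.5 CPM in OE and 266.4 CPM in EV, and 138.5 CPM in KD4, 178.2 CPM in KD6 and 166.6 CPM in shScr. Unlike Smarcd1, Txnip was thus lower in OE than in EV and higher in KD6 than in shScr. All 3 genes were higher on average in OE and EV than in the hairpin lines and shScr. The summed transcripts leave out 28.4 CPM of Smarcd1 in OE. For Smarcd2 they were Hist1h4j (0.92), Slc9a3r1 (0.92) and Hist1h4n (0.91), of which both histone genes have near-identical copies and are uncertain. For Smarcd3 they were Als2cl (0.90), Rnpep (0.86) and Zfat (0.84). The 15 points share 5 lines, so they are not 15 independent values.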

How the data were processed

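RNA of 5 lines of 6DT1 cells was sequenced in 3 libraries each. The deposited values were treated as CPM, that is, read counts scaled to library size. They came in a gene table for OE and EV, a gene table for the hairpin lines and a transcript table for all 15 libraries. Per the labels STAR 2.7.8a and mm39 were used, whereas the study's methods name other tools and an older build, so the path is not settled here. The read number behind a CPM is unknown. The authors' fold changes and p-values, and 15 per-library columns that match no sample here, were not used.

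Values were fitted as log2(CPM + 1) with limma 3.58.1 in R 4.3.3 (empirical Bayes with an intensity trend, a fit per table, Benjamini-Hochberg adjustment over all rows), with 1 as pseudocount and an adjusted p under 0.05 as threshold. The hairpin lines were fitted as 3 groups, and also as KD against shScr. Fold changes are on the log2(CPM + 1) scale, which understates the change of low genes. Comparisons of OE and EV with the hairpin lines used transcript sums per gene. Splits over transcripts were tested with diffSplice. The gene fits of OE against EV and of KD4 against shScr, and the split tests of OE against EV, were tried on simulated data. There diffSplice called more unchanged genes than its threshold allows. The other fits were not tried in this way. P-values measure the spread between passages of 1 population. Named genes are the members, the 3 of each list with the smallest p where any passed, and the 3 most alike per member. Bicra was listed as Gltscr1. Coding sequences and coordinates come from GENCODE vM1 on NCBIM37. The members and lists were chosen with earlier results of these data known. A list of RNA-binding proteins and deadenylase subunits is not reported here.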

Additional observations from a re-analysis of the deposited data

Results flagged for a closer look

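Smarcd2 in KD6 replicate 3 had 75.6 CPM, the lowest of the 6 KD libraries, and its gap to the next library was 0.642 of the range of all 6, past Dixon's 95% value. Chance gives such a gap in about 1 in 20 groups drawn from a single population. Here the 6 libraries came from both hairpin lines, and all 3 genes and 7 transcripts were searched, so that rate does not hold. Within KD6 the values were 93.3, 86.9 and 75.6 CPM. The other 5 KD libraries had 86.9 to 93.3 CPM, and without KD6 replicate 3 the log2 change of Smarcd2 in KD6 against shScr was 0.21 (limma adjusted p = 0.17).

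The hairpin lines differed from each other in Smarcd1, by 0.60 on the log2 scale (KD6 over KD4, limma adjusted p = 0.0029), with KD6 at 13.2 to 15.1 CPM and KD4 at 9.05 to 9.27 CPM.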

How the results depend on the processing

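Smarcd1 passed in KD4 against shScr, in KD6 against KD4, in EV against shScr and in the difference of the OE and KD4 effects under every alternative run, and Smarcd2 and Smarcd3 passed under none. In OE against EV Smarcd1 passed except on the sum of listed transcripts (log2 change 0.34, limma adjusted p = 0.77, with 0 genes called) and without OE replicate 2 or EV replicate 3 (1.06 to 1.17 over left-out libraries). With the hairpins averaged in a fit of 3 groups Smarcd1 passed in KD against shScr (-0.39, 847 genes called). The causes were not tested. Among the members 30 values turned sign, none of them called. Over left-out libraries, Smarcd2 ranged from -0.024 to 0.093 and Smarcd3 from -0.089 to 0.059 in OE against EV. Smarcd2-001 ranged from -0.063 to 0.13, Smarcd2-002 from -0.015 to 0.14 and Smarcd3-002 from -0.080 to 0.19. In KD4 against shScr Smarcd3-001 ranged from -0.21 to 0.026, Smarcd3-002 from -0.24 to 0.17 and Smarcd2-005 from -0.37 to 0.0035, and in KD6 against shScr Smarcd2-001 ranged from -0.19 to 0.15. The difference of the OE and KD4 effects in Smarcd3 ranged from -0.20 to 0.19 and that of the OE and KD6 effects in Smarcd2 from -0.14 to 0.11. Quantile normalization turned the last to 0.0092 and Smarcd3-002 in OE against EV to -0.032.

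Counts of calls moved more, mostly downward with fewer libraries. Without 1 library they ranged from 0 to 1 in OE against EV (3 with quantile normalization), 641 (without shScr replicate 2) to 1083 in KD4 and 151 (without KD6 replicate 2) to 288 in KD6 against shScr, 298 (without KD6 replicate 2) to 539 in KD6 against KD4, 92 (without shScr replicate 2) to 397 in KD against shScr (604 on the sum of listed transcripts), 971 (without EV replicate 1) to 1731 in EV against shScr, 318 (without OE replicate 1) to 1000 for OE minus KD4 effects and 54 (without EV replicate 3) to 173 for OE minus KD6 effects. For transcripts they ranged from 519 to 834 in KD4 and 97 to 248 in KD6. For splits over transcripts they ranged from 14 to 124 in OE, 62 to 201 in KD4 and 54 to 107 in KD6. The F test called 23 splits in OE and 52 in KD6, a pseudocount of 0.1 gave 97 in OE, and the log ratio of a transcript to its gene, chosen after seeing the data, called 0, 22 and 7 in OE, KD4 and KD6.

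The replicate numbers name passages and were not shown to pair libraries, with correlations of same-numbered deviations between -0.328 and 0.258. With the replicate number as a block no call of a member changed, and Smarcd1 kept an adjusted p of 0.025 in OE and 0.0060 in KD4. Counts under the block were 626 in KD4 and 179 in KD6 against shScr, 349 in KD6 against KD4, 114 in KD against shScr, 990 in EV against shScr, and 218 and 27 for the differences of the OE effect from those of KD4 and KD6. For transcripts they were 375 in KD4 and 57 in KD6, and for splits 11 in OE, 30 in KD4 and 30 in KD6.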
